A study of Mus musculus with 2 samples.

Results

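The genes described here encode the machinery that licenses replication origins and copies DNA at the fork. They are 40 mouse genes, chosen by symbol and complex with no measured value in the rule, out of 43346 mouse genes in the deposited tables. They cover the helicase subunits Mcm2 to Mcm7, the origin recognition complex (Orc1 to Orc6), the loading factors Cdc6 and Cdt1 with the inhibitor Gmnn, the helicase activators Cdc45, Gins1 to Gins4 and Mcm10, the kinase pair Cdc7 and Dbf4, the clamp Pcna with its loader (Rfc1 to Rfc5), polymerases and primase (Pola1, Pola2, Prim1, Prim2, Pold1, Pole), the Okazaki fragment enzymes Fen1 and Lig1, and the single-strand binding complex (Rpa1 to Rpa3). All 40 were found in both libraries. The samples were 2 libraries of total RNA from common myeloid progenitors (CMP), bone marrow cells that give rise to granulocytes, monocytes, red cells and megakaryocytes. Each library came from a pool of 100 primary cells from C57BL/6J male mice, adults of 5 to 6 weeks without a stated genetic change or treatment, and RNA over 200 nucleotides was sequenced with spike-ins. Both belong to 1 group, so there was no contrast between conditions. The labels name them biological replicates 1 and 2 with separate biosamples and 1 shared donor identifier. All p-values thus compare only these 2 libraries, whose differences may in part be technical. The exact binomial and Fisher's exact tests used below allow for counting error alone.

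An origin of replication is marked by the origin recognition complex, on which Cdc6 and Cdt1 load a double ring of the MCM helicase in G1, a step that geminin (Gmnn) blocks once DNA synthesis has begun. The Cdc7-Dbf4 kinase, Cdc45 and the GINS complex then turn the loaded ring into an active helicase, and polymerases held by the PCNA clamp copy the opened strands. Many of these genes are known targets of E2F transcription factors in dividing cells, and progenitors of the bone marrow are a population with many dividing cells.

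The libraries held 28916263 expected counts (replicate 1) and 26426710 (replicate 2), of which nuclear protein-coding genes took 43.9% and 45.3%. The long non-coding entry Gm42418 took 38.1% and 33.0%, and mitochondrial ribosomal RNA took 14.03% and 16.65%. A gene at 0 counts could reach 0.104 and 0.114 counts per 1000000, the level of 3 counts, a floor that covers counting error only. Kit, the stem cell factor receptor used to sort CMP, was at 98.1 and 93.0 TPM (transcripts per 1000000, which divides counts by transcript length), and Cd34 was at 74.5 and 55.4 TPM. Ly6a and Il7r, which this gate avoids, had 0 counts in both. The Fc receptor genes Fcgr2b and Fcgr3, whose products are low on CMP, were higher in replicate 2, at 2.48 and 9.59 TPM (92 and 226 counts) and at 0.64 and 4.27 TPM (15 and 99 counts). All 5 erythroid-megakaryocyte and all 5 granulocyte-monocyte progenitor markers were detected. Of the neutrophil markers 0 of 4 reached 1 TPM in both libraries (summed level 1.33 and 1.11 TPM), of the B cell markers 0 of 4 (5.21 and 0.25), of the T cell markers 0 of 3 (0.10 and 0.46), of the macrophage markers 1 of 3 (10.2 and 4.25) and of the stromal and endothelial markers 1 of 4 (20.2 and 17.3). The mature erythroblast list stood at a summed 57.0 TPM in replicate 1 and 14.6 in replicate 2, with 2 of 4 markers detected and Alas2 at 0 counts in both.

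All 40 replication genes reached 1 TPM or more in both libraries, and 37 reached 10 TPM or more in both. The median member stood at 35.9 TPM in replicate 1 and 31.7 in replicate 2 (33.8 ± 3.01, SD, n = 2). Against the 21461 nuclear protein-coding genes of the same library, the median member lay at percentile 91.7 in replicate 1 and 90.2 in replicate 2. The 9627 of those genes that were detected in both libraries had a median of 13.2 and 13.5 TPM. The members together took 0.266% and 0.252% of all counts. The range among them was wide. Pcna, the sliding clamp, was first in both libraries at 211 and 201 TPM, and Gins3, a subunit of the GINS complex, was last in both at 3.52 and 1.63 TPM. In a pool of cells, fewer replicating cells and less RNA per cell cannot be told apart.

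**Figure D1:**
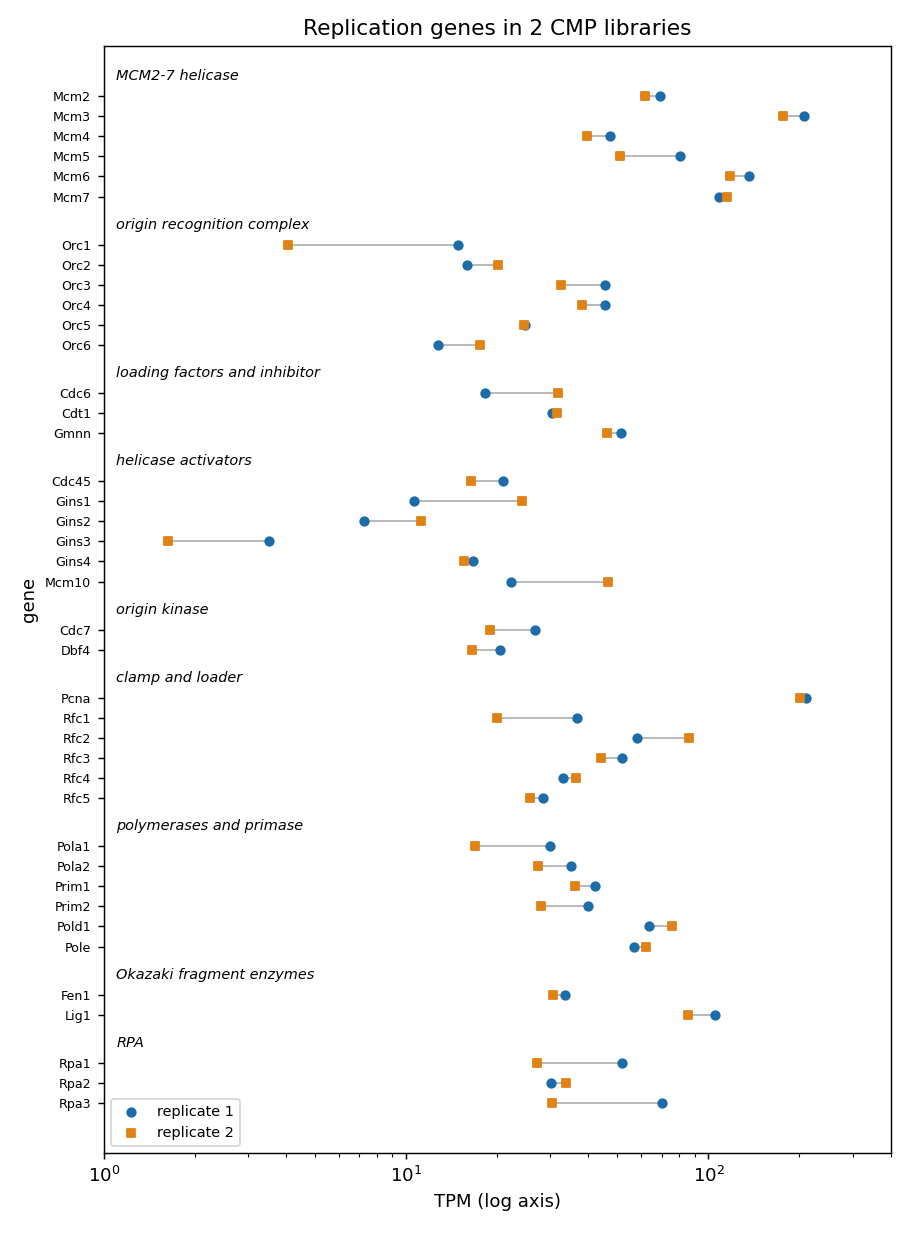
TPM of the 40 replication genes (log axis) in replicate 1 (blue circles) and replicate 2 (orange squares), grouped by complex, with a grey line joining both values of a gene. Pcna, Mcm3 and Mcm6 are the 3 highest genes in both libraries, and Gins3 is the lowest.

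The promoters of these genes were compared with all others for letters bound by E2F, for CCAAT (the NF-Y letters) and for GGGCGG (the SP1 letters). RefSeq windows on GRCm38.p6, from 250 bases before to 50 bases after each annotated start, were found for 32 of the 40 members, as 40 windows. Those of Mcm4, Gins1, Gins2, Gins4, Gmnn, Rfc2, Prim2 and Pole were not used here. The E2F search took TTTCCCGC, TTTCGCGC, TTTGCCGC and TTTGGCGC on both strands. At least 1 of these stood in 13 of 32 members (40.6%), against 3.29% of 17492 protein-coding genes with a window. By window the share was 32.5% for members and 2.26% for all 32851. The 13 members were Mcm3, Mcm5, Mcm6, Mcm7, Orc1, Orc3, Cdc6, Cdt1, Gins3, Rfc3, Pola1, Pold1 and Lig1. CCAAT was in 62.5% of the members and 42.3% of protein-coding genes, and GGGCGG in 75.0% and 49.2%. The members' windows were also richer in G and C, with a median of 61.8% against 56.3% over windows of protein-coding genes. These are matches of letters and show no binding.

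The 6 sequences that follow are from origin licensing genes, those whose E2F letters lie nearest to the annotated start, so that the letters can be read in place. Capitals mark the E2F letters and any CCAAT, also where they read as the reverse complement. Each is written 5′ to 3′ along the gene's own strand, and distances count from the first transcribed base as 0.
Mcm7 (chr5:138171849-138171878, minus strand): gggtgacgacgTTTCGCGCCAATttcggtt
Mcm3 (chr1:20820275-20820304, minus strand): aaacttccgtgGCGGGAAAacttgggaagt
Orc1 (chr4:108579374-108579453, plus strand): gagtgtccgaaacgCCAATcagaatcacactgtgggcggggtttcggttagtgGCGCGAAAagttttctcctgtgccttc
Cdt1 (chr8:122568036-122568064, plus strand): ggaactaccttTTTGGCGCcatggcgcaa
Orc3 (chr4:34614943-34615022, minus strand): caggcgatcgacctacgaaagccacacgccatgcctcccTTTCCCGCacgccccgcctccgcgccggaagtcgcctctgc
Mcm6 (chr1:128359706-128359785, minus strand): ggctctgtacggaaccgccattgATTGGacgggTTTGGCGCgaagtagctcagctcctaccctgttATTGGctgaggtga
In Mcm7 the E2F letters begin 16 bases after the start base and run into a CCAAT, with which they share letters. In Orc1 they span positions -27 to -20 and in Orc3 positions -41 to -34, before the start. The Mcm6 stretch ends at the start and holds 2 reverse-complement CCAAT around its E2F letters. Members with E2F letters had a median of 51.7 TPM in replicate 1 and 44.2 in replicate 2 (13 genes), and members without them 33.1 and 27.2 (19 genes), with ranges that overlap: Gins3, the lowest member, has the letters and Pcna, the highest, has none of those searched.

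The MCM2-7 genes were the highest complex, with a median of 94.2 TPM in replicate 1 and 88.5 in replicate 2. Mcm3 (chromosome 1, 20802968 to 20820312, GRCm38) was at 207 and 176 TPM. Mcm6 (chromosome 1, 128331590 to 128359664) was at 136 and 118 TPM, and Mcm7 (chromosome 5, 138164583 to 138172422) at 108 and 115 TPM. These 3 led in that order in both libraries, although Mcm6 (127.3 ± 12.8, SD, n = 2) and Mcm7 (111.6 ± 5.06) did not differ beyond their summed SD. Mcm2 was at 69.3 and 61.8 TPM, Mcm5 at 80.3 and 51.0 TPM and Mcm4 at 47.3 and 39.8 TPM. Mcm2 (65.6 ± 5.26) and Mcm5 (65.6 ± 20.8) traded places between the libraries, while Mcm4 was the lowest of the 6 in both. The helicase contains 1 of each subunit, yet the highest and the lowest gene differed by 4.37-fold in replicate 1 and 4.43-fold in replicate 2 in TPM.

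The origin recognition genes stood lower, at a median of 20.3 and 22.3 TPM. On log2(TPM + 1), the MCM2-7 median exceeded the ORC median by 2.17 in replicate 1 and 1.88 in replicate 2, a mean of 2.03 ± 0.21 (SD, n = 2), or 4.08-fold. With 2 values the smallest exact sign-flip p is 0.5, so no p is given for this or any ratio within a library. Orc4 was at 45.6 and 38.3 TPM and Orc3 at 45.6 and 32.5 TPM, the highest of the 6 in both libraries and within their spread of each other. Orc5 was at 24.8 and 24.5 TPM, Orc2 at 15.9 and 20.1 TPM and Orc6, the least conserved subunit, at 12.7 and 17.6 TPM. Orc1, the largest subunit, was at 14.8 TPM in replicate 1 and 4.08 in replicate 2. It stood above Orc6 alone in replicate 1 and was the lowest of the 6 in replicate 2. Part of that fall lay on the short non-coding transcript Orc1-202 (670 bases), at 6.98 and 0 TPM. On protein-coding transcripts alone Orc1 was at 4.79 and 2.97 TPM.

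Among the loading factors, Cdc6, the ATPase that joins the origin complex, was at 18.2 and 31.8 TPM. Cdt1, which brings in the helicase, was at 30.4 and 31.6 TPM. Gmnn, the inhibitor of Cdt1, was at 51.4 and 46.2 TPM and lay above Cdt1 by 0.74 and 0.54 on the log2 scale (0.64 ± 0.14, SD, n = 2). That order rests on length: without the length correction Gmnn lay below Cdt1 by a mean log2 ratio of -0.66. Cdc6 was above Orc1 in both libraries, by log2 ratios of 0.28 and 2.69 whose SD (1.70) was larger than their mean (1.49).

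The genes that activate the loaded helicase were the lowest group, at a median of 13.6 and 16.0 TPM. Cdc45, the helicase partner, was at 20.9 and 16.5 TPM. Of the GINS genes, Gins4 was at 16.6 and 15.5 TPM, Gins1 at 10.6 and 24.1 TPM and Gins2 at 7.25 and 11.2 TPM. Gins3 lay below the median of the 4 by -1.11 and -2.44 in log2(TPM + 1), and the 4 genes, which encode a complex with 1 copy of each, spanned 4.72-fold and 14.8-fold. Mcm10, which is needed to start unwinding, was at 22.3 and 46.5 TPM. Cdc7, the kinase, was at 26.7 and 19.0 TPM, and its activator Dbf4 was at 20.5 and 16.6 TPM, below Cdc7 in both.

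**Figure D2:**
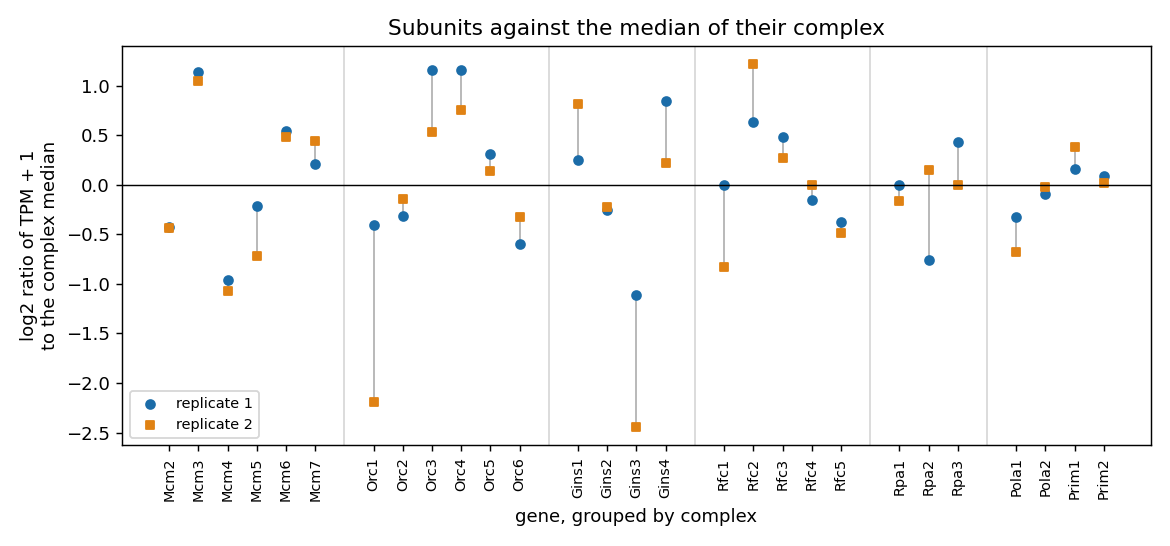
Log2 ratio of each subunit's TPM + 1 to the median of its complex (vertical axis) in replicate 1 (blue circles) and replicate 2 (orange squares), for MCM2-7, ORC, GINS, RFC, RPA and polymerase alpha-primase. Mcm3 lies at 1.14 and 1.05 and Mcm4 at -0.96 and -1.07, while Orc1 and Gins3 lie below their complex in both libraries by amounts that differ.

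At the fork, Pcna exceeded the median of the RFC clamp loader by 2.49 and 2.43 in log2(TPM + 1), a mean of 5.50-fold. Without length correction the mean log2 ratio was 1.81. PCNA works as a ring of identical subunits and RFC as a complex with 1 of each. Rfc2 was the highest loader gene at 58.1 and 86.0 TPM, and Rfc3 followed at 51.7 and 44.2 TPM. Rfc4 was at 33.1 and 36.5 TPM, Rfc5 at 28.3 and 25.6 TPM, and Rfc1, the large subunit, at 36.8 and 20.0 TPM. Rfc1 thus stood between Rfc3 and Rfc4 in replicate 1 and was the lowest of the 5 in replicate 2. Polymerase alpha and primase, which lay the first stretch of each new strand, spanned 1.41-fold and 2.15-fold among their 4 genes. The order was the same in both libraries, with Prim1 at 42.0 and 36.3 TPM, Prim2 at 39.9 and 28.0, Pola2 at 35.1 and 27.2 and the catalytic subunit Pola1 at 29.8 and 16.9. It too rests on length, since without the correction Pola1 lay above the median of the 4 by a mean log2 ratio of 0.74. On protein-coding transcripts alone the order was not shared: Prim1 was the lowest of the 4 in replicate 1 and the highest in replicate 2.

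The catalytic subunits of the leading and lagging strand polymerases were close in TPM over all transcripts. Pole was at 56.9 and 62.2 TPM and Pold1 at 63.4 and 75.9 TPM. Their log2 ratio, Pole over Pold1, was -0.16 and -0.28, and turned to 0.93 without the length correction. Lig1, the ligase that seals Okazaki fragments, was at 105 and 85.8 TPM, and the flap nuclease Fen1 at 33.4 and 30.6 TPM. Lig1 lay above Fen1 by 1.62 and 1.46 (1.54 ± 0.11, 2.90-fold), and by a mean of 0.51 on protein-coding transcripts alone. That remainder rests on short coding transcripts, Lig1-212 (1053 bases, 24.7 and 30.4 TPM) and Lig1-206 (944 bases, 16.1 and 0.12 TPM). The longer coding transcript Lig1-201 (3091 bases) was at 8.32 and 8.62 TPM, below Fen1 in both libraries. The RPA genes, whose products coat single-stranded DNA as a trimer, had no shared order. Rpa3, the small subunit, was at 70.2 and 30.4 TPM, Rpa1, the large subunit, at 51.9 and 27.2 TPM, and Rpa2 at 30.2 and 33.8 TPM. Of all 38 subunit and partner ratios computed, 31 had the same sign in both libraries and a mean larger than their SD. Each subunit ratio divides a gene by a median that includes it, so this count is partly set by construction. Orc2 (-0.31 and -0.14) and Orc5 (0.31 and 0.14), for example, mirror each other.

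Other replication genes, a list of 34 that holds accessory polymerase subunits, fork protection factors, nucleosome assembly factors and topoisomerases, had a median of 30.4 and 26.9 TPM, and all 34 were detected. The 4 highest by the mean of both libraries were Ssrp1, a subunit of the histone chaperone FACT, at 114 and 124 TPM, the topoisomerase Top2a at 78.6 and 99.2, the fork protection factor Tipin at 84.9 and 81.3, and Topbp1, which helps activate origins and the ATR checkpoint, at 103 and 59.3. The lowest by mean were Mcm9 at 3.87 and 5.29 TPM and Mcm8 at 5.59 and 5.04, relatives of the helicase subunits with roles in recombination, named after their values were seen.

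For many members part of the TPM lay on transcripts that GENCODE M21 does not annotate as protein-coding. Over the members' 204 transcripts, protein-coding transcripts held 68.5% and 66.6% of the summed TPM, and retained-intron transcripts, in which a stretch of intron is kept, held 23.6% and 28.0%. By counts the retained-intron share was 11.8% and 12.2%. TPM gives a count on a short transcript more weight than one on a long transcript. In the 38 members whose transcripts could be typed, the median share of TPM on coding transcripts was 91.8% and 85.7%. Among genes with 2 or more transcripts it was 72.4% and 78.5% for 31 members, and 86.3% and 86.7% for 6984 protein-coding genes. Fewer than 50% of the TPM lay on coding transcripts in both libraries in 6 of 38 members (15.8%), against 9.63% of 9347 protein-coding genes. How far retained-intron reads stand for unspliced RNA of the total RNA libraries was not tested.

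Mcm3 shows what this does to a level. Its coding transcript Mcm3-201 (3031 bases) held 3388 and 2777 counts, which gave 57.2 and 47.2 TPM. The retained-intron transcript Mcm3-203 (716 bases) held 1074 and 923 counts, which gave 91.6 and 81.3 TPM. On coding transcripts alone Mcm3 lay below Mcm6, Mcm7, Mcm2 and Mcm5 in both libraries, its log2 ratio to the MCM2-7 median was -0.31, and the span between the highest (Mcm6) and the lowest (Mcm4) was 2.81-fold and 2.87-fold. Mcm2, Mcm4 and Mcm5 had all their TPM on coding transcripts.

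Orc4 had the lowest coding share of the members in replicate 1, at 8.49%, with 18.1% in replicate 2, and its coding level was 3.87 and 6.92 TPM. On coding transcripts Orc4 lay below the ORC median by a mean log2 ratio of -1.31, while over all transcripts it was the highest of the 6. Rfc3 had 23.6% and 21.3% on coding transcripts, and its short retained-intron transcript Rfc3-207 (503 bases) held 64.3% and 71.4%. Mcm10 had 35.8% and 13.0%, Gins2 32.8% and 44.7%, and Lig1 46.9% and 49.9%. Pole had 47.6% and 52.3%, a coding level of 27.1 and 32.5 TPM. For Pold1 no share is given, since 25.1% and 16.5% of its TPM lay on transcripts without an M21 type. Its coding transcript Pold1-201 (3454 bases) was at 15.8 and 14.7 TPM. The coding level of Pole is a sum over 3 annotated coding transcripts, of which Pole-201 (7163 bases) was at 7.48 and 10.1 TPM. Pold1-201 thus lay below that sum and above Pole-201, so these values give no order of the genes. The retained-intron transcript Pold1-209 (532 bases) held 43.81% and 38.95% of the Pold1 TPM. Pcna kept 62.8% and 55.4%, a coding level of 132 and 111 TPM, and Mcm6 had 97.6% and 96.5% at 133 and 114 TPM, so on coding transcripts these genes did not differ beyond their spread. Over the 38 members, the median level on coding transcripts was 24.7 ± 3.14 TPM (SD, n = 2).

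**Figure D3:**
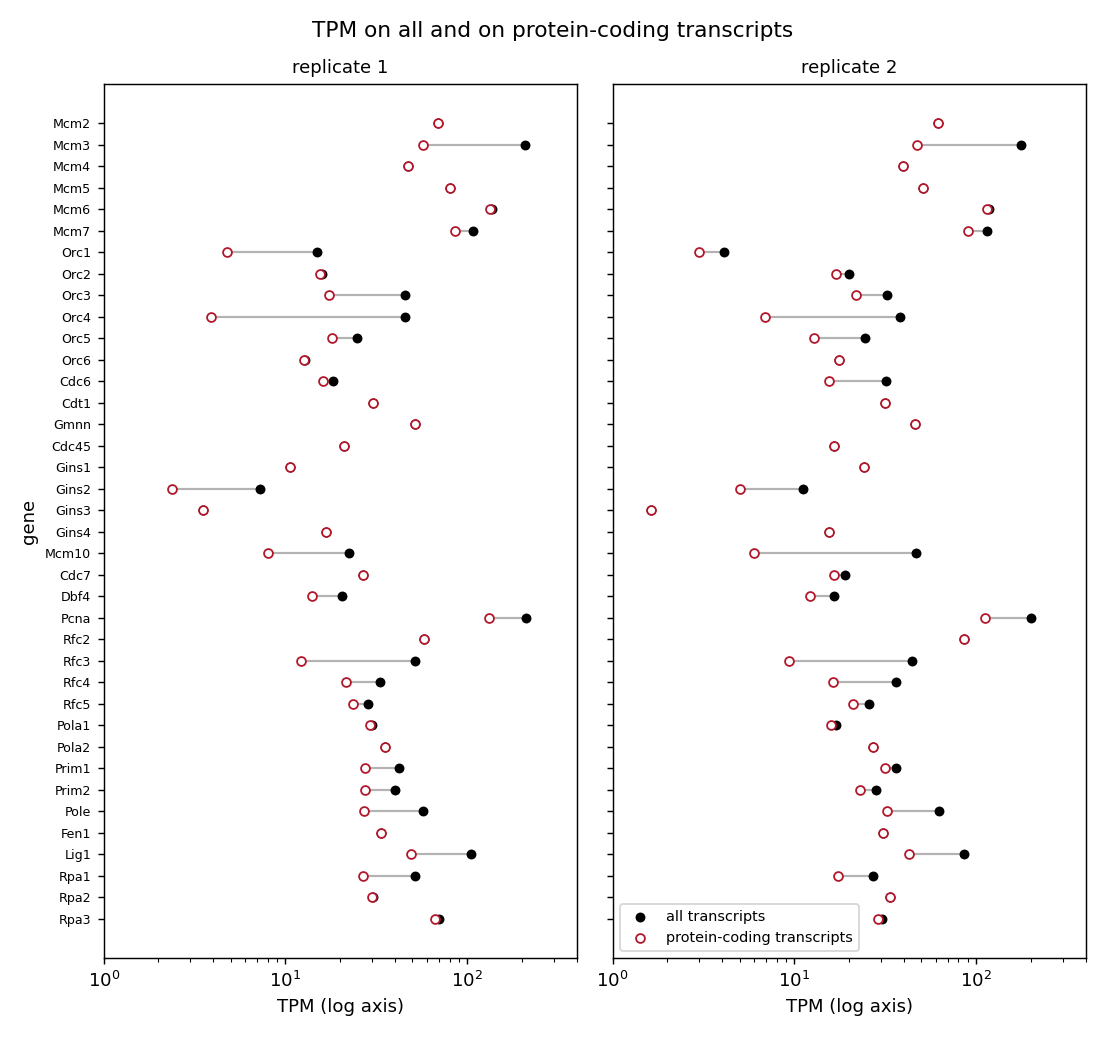
TPM (log axis) of 38 replication genes over all transcripts (black) and over protein-coding transcripts alone (red circles), in replicate 1 (left) and replicate 2 (right), with Rfc1 and Pold1 left out because over 10% of their TPM lay on transcripts without an M21 type. The gaps are widest for Orc4 in replicate 1 and Mcm10 in replicate 2, and Mcm2, Mcm4 and Mcm5 have none.

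The libraries were then set against each other to show how far each member's value repeats. Across the 40 members, log2(TPM + 1) in replicate 1 and replicate 2 correlated at a Pearson r of 0.892, and scaled counts at 0.94, a description across genes that share library depth and gene length. TPM was higher in replicate 1 for 27 members and in replicate 2 for 13. Counts scaled by TMM (trimmed mean of M values) were compared by an exact binomial test, two-sided, with Benjamini-Hochberg adjustment over 13616 genes. Of the 40 members, 34 differed at an adjusted p below 0.05 (85.0%), where 78.2% of all genes did. Of the 40, 27 (67.5%) differed and were higher in replicate 1, against 37.6% of all genes. Only 7 (17.5%) differed and were higher in replicate 2, against 40.6% of all genes. Scaling to total counts, in which Gm42418 is included, moves every log2 ratio by 0.20. With it 26 members differed (65.0%), fewer by share than the 79.2% of all genes, with 14 higher in replicate 1 and 12 in replicate 2. Among the other replication genes 28 of 34 differed (82.4%). The test compares these 2 libraries and covers counting error only. When edgeR's exact test was run at its common dispersion, 0 members and 0 genes of 13616 differed (0 members and 1541 genes at an unadjusted p below 0.05). That dispersion (0.576) was estimated from these same 2 libraries taken as 1 group, so their difference entered the noise term. The 0 therefore cannot decide whether members differ.

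The size of these differences was read against that of all genes. Scaled counts were 1.5-fold or more apart in 7 of 40 members (17.5%), where 46.0% of all genes tested were, and 29.5% of the 8932 protein-coding genes within the members' range of counts. TPM + 1 was 1.5-fold or more apart in 10 members (25.0%), where 40.7% of all genes and 31.8% of the 8932 were. The deposited TPM intervals of the 2 libraries did not overlap in 26 members (65.0%), where those of 63.2% of all genes did not. Their level is not given in the sources used here, and they sit around a posterior mean that can lie off the TPM.

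Of the 7 members apart in counts, 6 were lower in replicate 2. Rpa3 had 758 and 317 counts, 2.44-fold more in replicate 1 after scaling (95% exact interval 2.14 to 2.79, counting error only). Gins3 had 164 and 75 counts (2.22-fold, 1.69 to 2.97) and Orc1 had 391 and 180 (2.21-fold, 1.85 to 2.66). Pola1 had 3158 and 1755 counts (1.83-fold, 1.73 to 1.95), Mcm5 had 5407 and 3405 (1.62-fold, 1.55 to 1.69) and Prim2 had 1588 and 1079, at the 1.5-fold limit. Gins1 went the other way, with 205 and 457 counts, 2.18-fold more in replicate 2 (1.85 to 2.59). Under scaling to total counts, tried after seeing the data, 8 members were 1.5-fold or more apart, where 47.8% of all genes were, and 4 were higher in each library. Mcm5 (1.41-fold) and Prim2 (1.30-fold) then lay below 1.5-fold, while Orc6 (1.62-fold), Gins2 (1.60-fold) and Rfc2 (1.65-fold) were higher in replicate 2 beyond it. All are differences within 1 group. The mature erythroblast markers were also higher in replicate 1, as given above, and their part in these differences was not tested.

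In 4 members TPM was 1.5-fold or more apart while counts were not, namely Cdc6, Mcm10, Rfc1 and Rpa1. These 4 of 40 are a share near the background, since 9.23% of the 8932 protein-coding genes in their range of counts and 6.78% of all genes tested did the same. Cdc6 had 1156 and 1213 counts, which did not differ by the exact binomial test (adjusted p = 0.523), but 18.2 and 31.8 TPM. Its retained-intron transcript Cdc6-204 (694 bases) went from 0 to 167 counts and from 0 to 48.3% of the gene's TPM, while its coding level was 16.2 and 15.5 TPM. Mcm10 had 1025 and 1165 counts and a deposited gene length, weighted by transcript, of 2383 and 1384 bases. Its retained-intron transcript Mcm10-204 went from 79 to 477 counts, and its coding level was 7.98 and 6.03 TPM. So the higher TPM of Cdc6 and Mcm10 in replicate 2 was not seen on coding transcripts.

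**Figure D4:**
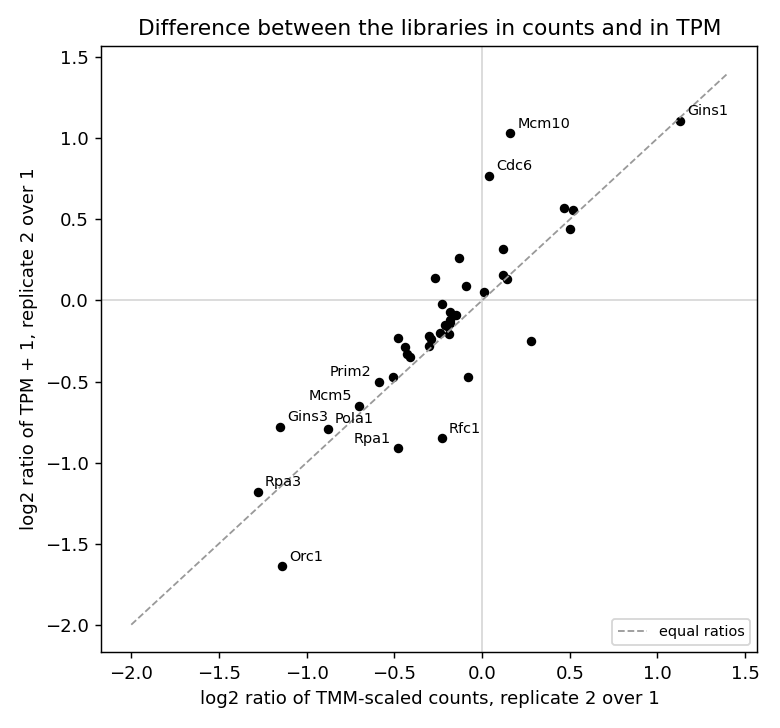
Log2 ratio of replicate 2 to replicate 1 for the 40 replication genes, in TMM-scaled counts (horizontal axis) and in TPM + 1 (vertical axis), with names at 1.5-fold or more on either axis and a dashed line where both ratios are equal. Gins1 lies high and Rpa3 and Orc1 low on both axes, whereas Cdc6 and Mcm10 lie well above the line and Rfc1 and Rpa1 well below it.

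Which transcript led also varied. The 33 members with several transcripts and at least 50 counts in each library included 20 with the same leading transcript by TPM in both. The share of counts on the leading transcript differed in 24 of 33 (72.7%) by Fisher's exact test with Benjamini-Hochberg adjustment over 7355 genes, where 77.0% of all genes did. Orc6-201 went from 27.6% to 88.1% of the gene's counts, Prim1-201 from 33.9% to 79.4%, and Dbf4-207 from 73.0% to 21.3%. For Orc6 the other transcript is also protein-coding, and its coding share stayed at 100%. Rfc1-201 (4694 bases) had 1626 counts in replicate 1 and 0 in replicate 2, while a transcript of 4751 bases without an M21 entry had 0 and 1679. Counts split between such similar transcripts are estimates, and no error of that split was used here.

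The deposited tables also bear on reads shared with other genes. The deposited standard deviation of the gene count was 0 in both libraries for all members but Orc5, Pcna and Rpa3, and at most 7.08 counts. Of 2 named pseudogenes of members in the tables, Pcna-ps1 had 0 counts and Pcna-ps2 was at 0.73 and 0.77 TPM. Orc5 shares 1.46% of its exonic bases with Gm15421, a transcribed pseudogene on the same strand. The transcript Gm15421-201 (443 bases) was counted under Orc5, with 0 and 28 counts. It held 0% and 19.5% of the Orc5 TPM, so the similar Orc5 TPM of the libraries depends on it. Exons of 13 members share bases with a gene on the opposite strand, and whether counting used the strand is not given in the sources used here, so reads of such partners may not be told apart. The overlap was 67.3% of exonic bases for Gins2 with Gse1 (37.9 and 61.4 TPM), 29.8% for Orc2 with Nif3l1, 15.1% for Rfc2 with Lat2 and 12.7% for Rfc4 with Eif4a2, which was at 212 and 210 TPM. These are shares of bases and not of reads, so how far the values of these 4 members are affected is not known. Fen1 shares 78.8% with Gm10143, which had 0 TPM in both libraries, and 5.37% with Tmem258, which was at 127 and 92.5 TPM. Smaller overlaps leave the same doubt for other members, such as Rfc5 with Wsb2 (10.7%, Wsb2 at 5.28 and 9.21 TPM).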

How the data were processed

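Total RNA of 2 CMP pools was measured, in 1 group by the labels. The deposited tables give, per gene and transcript, expected counts (estimates that divide shared reads), TPM (per 1000000 over all entries), posterior mean TPM with an interval, and the percent of its gene's TPM on each transcript, per the file headers. The build is mm10 with GENCODE M4, per the deposited notes of each library. For the aligner and quantifier, names were not given in the sources used here. Other deposited values used, per the file headers, are lengths in bases and the standard deviation of the count.

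The 40 members, the 34 other genes and the markers were chosen with earlier results of these data known. All members and the 4 highest of the 34 are named. Without their versions, gene identifiers matched GENCODE M21 (GRCm38) for 42462 of 43346 genes, which took symbols and types from it. Expected counts were rounded, scaled by TMM (edgeR 4.0.16, R 4.3.3) and tested with scipy 1.17.1 at an adjusted p of 0.05. Tested genes reached 10 counts in either library. Genes typed as ribosomal RNA, nuclear or mitochondrial, were left out, while Gm42418 was kept and is part of the total counts. edgeR's quasi-likelihood test could not be fitted without residual degrees of freedom. Ratios used TPM + 1. Promoters printed are the 6 origin licensing members with E2F letters nearest to the start. The exact tests were run on data simulated with counting noise alone, the noise they assume. That check cannot show how they behave under the larger differences between real libraries. Alternatives were other TPM and count minimums, pseudocount 0.1, posterior means, DESeq2 size factors, total-count scaling, no length correction and coding transcripts alone.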

Additional observations from a re-analysis of the deposited data

How the results depend on the processing

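Detection held for 40 members at 0.1 TPM, 38 at 5 and 37 at 10. The median TPM was 87.9 when TPM was rescaled over nuclear protein-coding genes and 24.7 on protein-coding transcripts alone, an alternative chosen after seeing the data; without either replicate it was 31.7 to 35.9. The median percentile was 91.0, 79.9 among detected genes only and 89.0 by counts per 1000000. Members differing between the libraries numbered 34 with DESeq2 size factors, without a count minimum and at 50 counts, where 78.2%, 72.2% and 77.5% of all genes did. They numbered 26 (65.0%, all genes 79.2%) with total-count scaling. With edgeR's exact test at its common dispersion they numbered 0, which decides nothing because that dispersion came from the same 2 libraries. Without length correction these log2 ratios changed sign: Orc2 0.24 and Orc5 -0.14 (to the ORC median), Gins1 -0.04, Gins2 0.16, Rfc3 -0.99, Rfc1 0.46, Rpa1 0.64, Rpa3 -1.1, Pola1 0.74, Pola2 0.04, Prim1 -0.18 and Prim2 -0.09 (to their complex), Gmnn over Cdt1 -0.66 and Pole over Pold1 0.93. On coding transcripts alone these did: Mcm2 0.02, Mcm3 -0.31, Orc2 0.16, Orc4 -1.31, Orc6 0.05, Rpa2 0.11, Pola2 0.21 and Prim2 -0.08. Ratios with a shared sign and a mean above the SD numbered 31 of 38 with a pseudocount of 0.1 and with posterior means, 27 without length correction (21 of them among the 31) and 23 of 31 on coding transcripts. No paired analysis was possible because there is 1 group. 2 libraries and 100 cells a pool limit every value.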
